A study of Mus musculus with 6 samples.

Results

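The genes described here are 9 components of the JAK-STAT pathway: the transcription factor genes Stat2, Stat3, Stat4, Stat5a, Stat5b and Stat6, the kinase gene Jak2, and the feedback inhibitor genes Socs1 and Socs3. They were picked by gene symbol out of 26082 differently named entries of the expression table, and entries with the same name were summed. The data are RNA-Seq profiles of 6 samples of MLL-AF9 leukemia cells from the bone marrow of C57BL/6J mice, 3 given vehicle and 3 given DS-5272, an inhibitor that releases p53 from MDM2, at 80 mg/kg by mouth. The cells were collected 24 h after the dose and purified on a cell sorter before RNA was extracted. In the study's methods the leukemia arose from c-Kit+ progenitors of wild-type mice infected with a retrovirus that encodes MLL-AF9, a fusion oncogene of acute myeloid leukemia (AML), and was passaged repeatedly from mouse to mouse, so both groups carry the fusion and descend from selected, transplanted cells. The retroviral promoter, and not a native one, drives the fusion. The age of the mice is not given in the sources used here, and the labels do not state that each sample came from a separate animal, so p-values measure the spread between these samples.

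Cytokines bind receptor chains that carry JAK kinases, the kinases phosphorylate STAT proteins, and the STAT proteins enter the nucleus as dimers and bind DNA. STAT2 acts in ISGF3, the complex that answers type I interferon; STAT3 answers IL-6, IL-10 and G-CSF; STAT4 answers IL-12; STAT5A and STAT5B answer IL-3, GM-CSF and many other growth factors; and STAT6 answers IL-4 and IL-13. SOCS proteins are made in response to STAT activity and shut the receptor or the kinase down. The pathway is regulated mainly by phosphorylation, which an mRNA measurement does not see.

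The values are FPKM, in which fragments are divided by transcript length and by library size, so levels of different genes can be set side by side. The FPKM of all genes summed to between 445316 and 501241 in the vehicle samples and to between 499229 and 661184 in the DS-5272 samples. The depth, estimated from the steps between low FPKM values, was about 34700000 to 43000000 fragments in the vehicle samples and about 23200000 to 32100000 in the DS-5272 samples, figures that give the scale only. All 9 genes were among the 11130 that had a mean of at least 1 FPKM and were tested with limma on log2(FPKM + 1), with Benjamini-Hochberg adjustment over all of them. Fold changes below are differences on that log2 scale, where the added 1 shrinks the differences of weakly expressed genes, each with its standard error (SE), and sets of 3 sample values are listed in the order of replicates 1, 2 and 3. In bulk RNA, fewer cells of a type and less RNA per cell cannot be told apart.

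Of the 9 genes, 7 rose with DS-5272 and none fell at an adjusted p under 0.05 from limma; at an unadjusted p under 0.05, 1 was lower (Stat5a). The genes that rose were Socs3, Stat2, Stat6, Stat3, Jak2, Stat5b and Socs1, in order of fold change. Among all tested genes 24.2% passed the same test as higher and 22% as lower. For 8 of the 9 genes the groups were fully apart, with the DS-5272 values higher for 7 and lower for 1, Stat5a. Groups without overlap made up 32.1% of all tested genes with DS-5272 higher and 29.7% with DS-5272 lower. The median log2 fold change of the 9 genes was 0.72, against 0.04 over all tested genes. Rescaling every sample to a common FPKM total moved the median of all tested genes to −0.19 and left 3 of the 9 genes higher (Socs3, Stat2 and Stat6) and 2 lower (Stat4 and Stat5a). Of all 11130 tested genes, 1713 were higher and 3555 lower at that scaling.

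**Figure D1:**
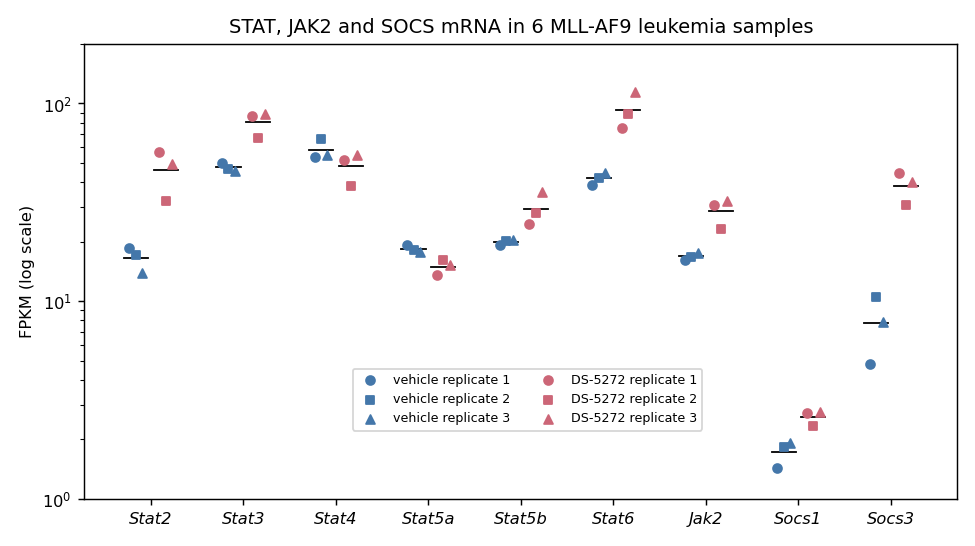
FPKM of the 9 genes on a log axis, with 1 point per sample (blue, vehicle; red, DS-5272; marker shape, replicate number) and a line at each group mean. The groups are apart for every gene except Stat4, and Socs3 shows the widest gap, with means of 7.75 and 38.4 FPKM.

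Stat2, the ISGF3 subunit that carries the transactivation domain, measured 18.6, 17.1 and 14.0 FPKM with vehicle and 56.8, 32.1 and 49.5 FPKM with DS-5272. Every DS-5272 sample was above every vehicle sample, and DS-5272 replicate 2 was the closest to them. The means were 16.6 ± 2.38 and 46.1 ± 12.7 FPKM (SD, n = 3 each), a ratio of 2.79, and Stat2 rose by a log2 fold change of 1.39 (SE 0.22, adjusted p = 0.0049 from limma). The call held in all 15 alternative analyses, where the log2 fold change lay between 1.14 and 1.63.

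The genes that ISGF3 is known to switch on moved the same way. In a list of 20 ISGF3 targets, 16 had an entry of their own with a mean of at least 1 FPKM, and all 16 rose, with a median log2 fold change of 2.09. The largest changes were those of Oas3, an enzyme that makes the activator of RNase L (2.65, SE 0.28, adjusted p = 0.0018 from limma), Mx1, a GTPase that blocks viruses (2.50, SE 0.36, adjusted p = 0.0037 from limma), and Oasl2, a relative of Oas3 (2.45, SE 0.33, adjusted p = 0.0034 from limma). Usp18, a protease that also holds back interferon receptor signalling, went from a mean of 7.49 to 35.5 FPKM (2.12, SE 0.32, adjusted p = 0.0041 from limma). Oas3, Mx1, Oasl2 and Usp18, like Stat2, all had their lowest DS-5272 value in replicate 2, as did 47.0% of all 2697 genes called higher. The messenger of interferon beta, Ifnb1, was listed at 0 in the 3 vehicle samples and at 0.187, 0.107 and 0.0648 FPKM with DS-5272, under the level needed for the test.

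The promoter windows of the 9 genes were searched because STAT dimers bind a palindrome called GAS and ISGF3 binds the ISRE. The windows are those of RefSeq on GRCm38.p6 and run from 250 bases before to 50 bases after a transcript start, and all 9 genes had at least 1. The letters searched were TTCNNNGAA for GAS and GAAANNGAA for the core of the ISRE, on both strands. GAS letters occur in 8.3% and ISRE core letters in 8.56% of the 32851 windows of all genes. Counted per gene, they occur in 9.55% and 9.76% of 27025 genes. A match is therefore a description and not evidence of binding. Stat2 and Socs1 held ISRE core letters, as did 1 of the 2 windows of Stat4, and Socs3 held GAS letters; the windows of Stat3, Stat5a, Stat5b, Stat6 and Jak2 held neither. The matches are shown 5′ to 3′ on the strand of the gene, with the matching letters in capitals and 10 bases on each side; the Stat2 match reads on the reverse strand.
Stat2, ISRE core, bases −221 to −213 from the start, chr10:128270267-128270295 (+ strand): gcaccctggtTTCAGTTTCctttccctag
Stat4, ISRE core, bases −97 to −89, chr1:52008133-52008161 (+ strand): aatgtcttcaGAAAGTGAAatttagaacg
Socs1, ISRE core, bases −83 to −75, chr16:10785601-10785629 (− strand): agacttgccgGAAAGAGAAaccgaaagcg
Socs1, ISRE core, bases −77 to −69, chr16:10785595-10785623 (− strand): gccggaaagaGAAACCGAAagcgggggtg
Socs3, GAS, bases −154 to −146, chr11:117969502-117969530 (− strand): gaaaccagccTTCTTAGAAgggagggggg
The 2 Socs1 matches overlap in the GAA at positions −77 to −75.

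Stat3, the factor downstream of gp130 and of the IL-10 and G-CSF receptors, measured 50.3, 46.8 and 45.4 FPKM with vehicle and 86.5, 66.7 and 88.7 FPKM with DS-5272. The groups did not overlap, and DS-5272 replicate 2 again lay nearest to vehicle. The means of 47.5 ± 2.50 and 80.7 ± 12.1 FPKM (SD, n = 3 each) give a ratio of 1.70, and the log2 fold change was 0.74 (SE 0.13, adjusted p = 0.0066 from limma). Rescaled to a common total it was 0.48 with an adjusted p of 0.055 from limma, and the call held in the other 14 alternatives.

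Of 9 receptor chains of the gp130 and IL-10 families, 7 were tested and 4 rose. Il10ra, the ligand-binding chain for IL-10, went from 2.31 ± 0.538 to 21.1 ± 4.58 FPKM (SD, n = 3 each; log2 fold change 2.73, SE 0.19, adjusted p = 0.00068 from limma). Csf3r, the G-CSF receptor, had a log2 fold change of 1.36 (SE 0.14, adjusted p = 0.0016 from limma) and Il6ra, the IL-6 receptor, one of 1.07 (SE 0.16, adjusted p = 0.0039 from limma). Il27ra, for IL-27, was the remaining gene that rose (0.95, SE 0.25, adjusted p = 0.021 from limma), but dropping vehicle replicate 2 or 3 ended the call (limma adjusted p = 0.075 and 0.066), as did a common total (0.056). Its vehicle mean of 0.412 FPKM is under the minimum of 1, which it reached through the DS-5272 mean of 1.78 FPKM, so this call is partly selected by the change itself. Il10rb, the accessory chain of the IL-10 receptor, passed with the replicate number as a block (0.37, adjusted p = 0.035 from limma) but not without it (0.22). The shared signalling chain gp130 itself, Il6st, had means of 5.36 ± 1.93 and 4.34 ± 3.42 FPKM (SD, n = 3 each) and did not pass the test (−0.39, adjusted p = 0.49 from limma).

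STAT3 target genes were mostly higher. Of 16 listed, 15 were tested, 11 rose and 2 fell, with a median log2 fold change of 1.24. Saa3, an acute phase protein, had the largest rise (2.71, SE 0.77, adjusted p = 0.027 from limma), with vehicle values of 3.53, 25.9 and 32.8 FPKM that themselves lay far apart; without vehicle replicate 1 its log2 fold change was 0.91 smaller and lay under those of Il1rn (2.03) and Lcn2 (1.98) in the same fit. Lcn2, an iron-scavenging granule protein, changed by 2.51 (SE 0.57, adjusted p = 0.013 from limma) and Il1rn, the IL-1 receptor antagonist, by 2.19 (SE 0.36, adjusted p = 0.0052 from limma). The genes that fell were Birc5, a cell division gene that codes for survivin (−2.85, SE 0.73, adjusted p = 0.019 from limma), and Myc, a growth regulator (−1.23, SE 0.36, adjusted p = 0.031 from limma). Birc5 and Myc both lost the call when any 1 of the vehicle samples was left out (adjusted p from 0.050 to 0.082), and Saa3 lost it without DS-5272 replicate 1 or 3 (adjusted p = 0.069 and 0.060 from limma). The log2 fold change of Birc5 was −3.72 without DS-5272 replicate 2 and −2.12 without DS-5272 replicate 3. Junb, an immediate early gene, passed the test with the replicate number as a block (1.29, adjusted p = 0.0031 from limma) but not without it (0.14).

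Stat5a and Stat5b, neighbouring genes on chromosome 11 whose proteins are close relatives, had DS-5272 values on opposite sides of vehicle. Stat5a measured 19.2, 18.1 and 17.8 FPKM with vehicle and 13.6, 16.1 and 15.2 FPKM with DS-5272. All DS-5272 values were below all vehicle values, but the difference did not pass the test (means 18.4 ± 0.717 and 14.9 ± 1.28 FPKM, SD, n = 3 each; log2 fold change −0.28, SE 0.10, adjusted p = 0.055 from limma). It passed in 6 of 15 alternatives, among them every rescaling, where the log2 fold change lay between −0.53 and −0.32, and without DS-5272 replicate 2 (−0.33, adjusted p = 0.0496 from limma).

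Stat5b measured 19.1, 20.1 and 20.3 FPKM with vehicle and 24.6, 28.1 and 35.7 FPKM with DS-5272. The vehicle samples lay close together, and all DS-5272 samples were above them. The means were 19.9 ± 0.624 and 29.4 ± 5.65 FPKM (SD, n = 3 each), and Stat5b rose by a log2 fold change of 0.53 (SE 0.14, adjusted p = 0.023 from limma). Dropping vehicle replicate 1, 2 or 3 ended the call (limma adjusted p = 0.071, 0.072 and 0.066; log2 fold change 0.51 to 0.55) and so did a common total (0.27, adjusted p = 0.056 from limma).

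In the GENCODE annotation of GRCm38, Stat5b lies at chr11:100780731-100850724 on the minus strand, Stat5a at chr11:100859351-100885169 on the plus strand and Stat3 at chr11:100885098-100939540 on the minus strand. Stat5b and Stat5a stand head to head, 8626 bases apart, and the 3′ ends of Stat5a and Stat3 overlap by 72 bases on opposite strands. No source says that strand was used in counting, and fragments from stretches that Stat5a and Stat5b share may have been divided between them, which leaves some uncertainty in these levels. Stat6 (chr10:127642986-127660957, plus strand) and Stat2 (chr10:128270559-128292849, plus strand) lie on one chromosome too, and a short exon overlap of 40 bases joins Stat6 with Nab2 on the opposite strand. The largest exon overlap of the 9 genes is that of Stat4 (chr1:51987148-52107189, plus strand) with Gm28177, 192 bases on the same strand.

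The receptors that use STAT5 in myeloid cells were higher. Of 13 chains listed, 6 were tested and 4 rose, and the receptors for erythropoietin, thrombopoietin, prolactin and IL-5 were among the 7 under the level for the test. The common beta chain Csf2rb, which GM-CSF, IL-3 and IL-5 share, went from 74.5 ± 3.04 to 176.8 ± 25.6 FPKM (SD, n = 3 each; log2 fold change 1.23, SE 0.13, adjusted p = 0.0017 from limma). Csf2rb2, the mouse beta chain for IL-3, had a log2 fold change of 1.73 (SE 0.14, adjusted p = 0.00076 from limma), Csf2ra, the GM-CSF alpha chain, 1.35 (SE 0.16, adjusted p = 0.0024 from limma) and Il3ra, the IL-3 alpha chain, 0.56 (SE 0.12, adjusted p = 0.012 from limma).

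Of 10 STAT5 targets, 5 were tested and 2 rose: Pim1, a survival kinase that is also in the STAT3 list (1.24, SE 0.26, adjusted p = 0.011 from limma), and Bcl2l1, which codes for the anti-apoptotic protein BCL-XL (0.59, SE 0.13, adjusted p = 0.012 from limma). Bcl2l1 lost its call at a common total. With the replicate number as a block, the cytokine gene Osm (1.54) also rose and the protease inhibitor gene Serpina3g fell (−0.82; adjusted p = 0.0013 and 0.034 from limma, against 0.10 and 0.15 without the block). Cish, the feedback inhibitor most closely tied to STAT5, was under the level for the test, with 0.377 to 0.878 FPKM in vehicle and 0.945 to 1.85 FPKM in DS-5272 samples, and Socs2, another STAT5 target, did not exceed 0.140 FPKM in any sample.

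Stat6, the IL-4 and IL-13 factor, measured 38.9, 42.1 and 44.4 FPKM with vehicle and 75.6, 88.7 and 114.7 FPKM with DS-5272. The groups were far apart, and the order of the DS-5272 samples was that of their FPKM sums, as for Stat5b. The means of 41.8 ± 2.79 and 93.0 ± 19.9 FPKM (SD, n = 3 each) give a ratio of 2.22, and Stat6 rose by a log2 fold change of 1.12 (SE 0.16, adjusted p = 0.0039 from limma). The call held in all 15 alternatives, and the log2 fold change at a common total was 0.85.

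Il13ra1 and Il4ra, chains of the receptors in front of STAT6, rose as well. Il2rg, the common gamma chain, was listed with the STAT5 receptor chains and did not pass. Its means were 24.2 and 26.7 FPKM (log2 fold change 0.15, adjusted p = 0.34 from limma). Il13ra1, which binds IL-13, went from a mean of 13.6 to 63.1 FPKM (log2 fold change 2.13, SE 0.13, adjusted p = 0.00061 from limma) and Il4ra, the IL-4 receptor alpha chain, from 20.5 to 62.7 FPKM (1.55, SE 0.15, adjusted p = 0.0013 from limma). Il4 did not exceed 0.128 FPKM and Il13 was listed at 0 in every sample. Of 15 STAT6 targets 9 were tested, 3 rose and 2 fell, with a median of 1.04. Mrc1, tested but not past the threshold (1.18, adjusted p = 0.19 from limma), had a vehicle mean of 0.424 FPKM. It reached the minimum of 1 through DS-5272 replicate 1 (9.41 FPKM), so its place in this median is partly selected by the change itself. The genes that rose were Il4ra itself, Retnla, a secreted protein of alternatively activated macrophages (2.59, SE 0.80, adjusted p = 0.036 from limma), and Egr2, a zinc finger factor (1.34, SE 0.32, adjusted p = 0.015 from limma). The genes that fell were Mgl2, a lectin of macrophages and dendritic cells (−1.25, SE 0.26, adjusted p = 0.0097 from limma), and the chemokine Ccl17 (−0.57, SE 0.16, adjusted p = 0.025 from limma). The calls of Retnla and Ccl17 were lost without any 1 of the vehicle samples (adjusted p from 0.066 to 0.106) and without DS-5272 replicate 2 (0.092 and 0.059), and that of Retnla also without DS-5272 replicate 3 (0.071, log2 fold change 1.81); leaving out DS-5272 replicate 1 gave 3.46 for Retnla. Chil3, a chitinase-like protein of myeloid cells with means of 1994 and 3979 FPKM, passed with the replicate number as a block (1.04, adjusted p = 0.0012 from limma) but not without it (0.199). Arg1, the best known STAT6 target of mouse macrophages, did not exceed 0.1002 FPKM.

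Stat4 had the highest level of the 9 genes in vehicle samples, with 53.9, 65.9 and 55.2 FPKM, and measured 51.5, 38.1 and 55.0 FPKM with DS-5272. It was the only gene of the 9 whose groups overlapped, since DS-5272 replicate 3 lay above vehicle replicate 1. The means were 58.3 ± 6.57 and 48.2 ± 8.92 FPKM (SD, n = 3 each), and the log2 fold change of −0.28 (SE 0.16, adjusted p = 0.19 from limma) did not pass the test. Without DS-5272 replicate 2 it was −0.12 and without vehicle replicate 2 it was −0.19, while at a common total it was −0.54 (adjusted p = 0.040 from limma) and after quantile normalization −0.46 (adjusted p = 0.044 from limma).

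Stat4 is best known from T cells and NK cells, so their markers were read in the same samples. The 9 NK cell markers together summed to between 0.562 and 1.37 FPKM in vehicle and between 2.31 and 3.95 FPKM in DS-5272 samples, and none reached the level for the test. The 8 T cell markers with an entry summed to between 2.14 and 2.72 FPKM in vehicle and between 2.75 and 4.88 FPKM in DS-5272 samples, with Cd3e at most 0.313 FPKM. The highest single markers were Cd4, at 3.28 FPKM in DS-5272 replicate 1, Bcl11b, at 1.14 to 2.16 FPKM, and Gzma, at 1.05 to 1.95 FPKM with DS-5272, against 38.1 FPKM or more for Stat4. The part of such cells in the Stat4 level was not tested. The IL-12 receptor chain Il12rb1 had means of 1.67 and 1.77 FPKM (log2 fold change 0.04, adjusted p = 0.84 from limma), and Il12rb2, the chain that recruits STAT4, did not exceed 0.270 FPKM. Of 7 STAT4 targets, 4, with Ifng and Tbx21 among them, were under the level for the test; of the 3 tested, Furin, a protease (1.56, SE 0.16, adjusted p = 0.0016 from limma), and Hlx, a homeobox factor (1.39, SE 0.33, adjusted p = 0.015 from limma), rose. Gadd45g, the other one tested, passed only with the replicate number as a block (0.72, adjusted p = 0.020 from limma, against 0.080 without it).

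Jak2, the kinase bound to the receptors for GM-CSF, IL-3 and G-CSF, measured 16.2, 16.8 and 17.6 FPKM with vehicle and 30.6, 23.2 and 32.1 FPKM with DS-5272. Vehicle samples were tightly grouped, and every DS-5272 sample lay above them. The means of 16.9 ± 0.711 and 28.6 ± 4.76 FPKM (SD, n = 3 each) give a ratio of 1.70, and Jak2 rose by a log2 fold change of 0.72 (SE 0.14, adjusted p = 0.0079 from limma). At a common total it was 0.46 (adjusted p = 0.052 from limma), the only 1 of 15 alternatives without a call. The other JAK genes with an entry of their own rose too: Tyk2, which serves the interferon and IL-12 receptors (0.84, SE 0.10, adjusted p = 0.0024 from limma), and Jak1, which serves the gp130 and interferon receptors (0.68, SE 0.15, adjusted p = 0.013 from limma). The table gives Jak3 only jointly with Insl3, so no value is given for it.

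**Figure D2:**
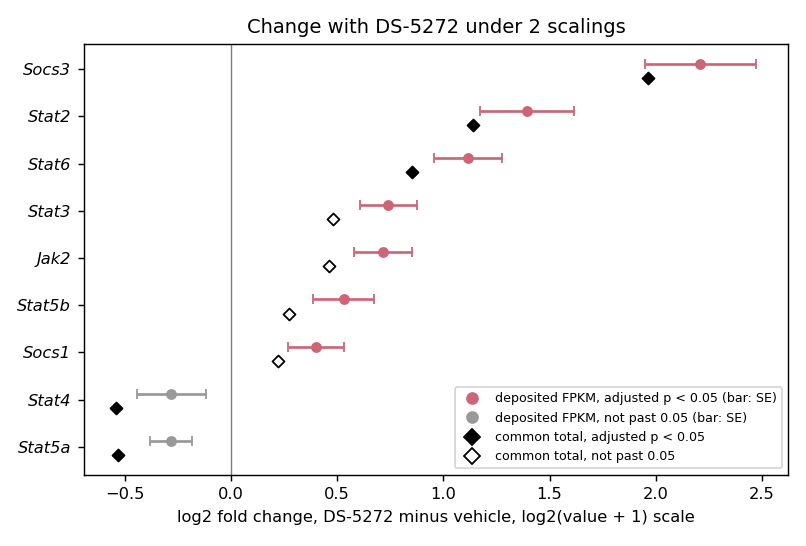
Log2 fold change (DS-5272 minus vehicle) of the 9 genes. Circles show deposited FPKM with bars of 1 SE (red, adjusted p under 0.05 from limma; grey, above), and diamonds show the values after rescaling to a common total (filled, adjusted p under 0.05). Each diamond lies to the left of its circle; Socs3, Stat2 and Stat6 keep their call under both scalings, at 1.97, 1.14 and 0.85 after rescaling.

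Socs3, the inhibitor that binds gp130, the G-CSF receptor and JAK2, showed the largest change of the 9 genes. It measured 4.82, 10.5 and 7.86 FPKM with vehicle and 44.4, 30.8 and 39.9 FPKM with DS-5272. The vehicle samples were spread widely, and the lowest DS-5272 sample was far above the highest of them. The means were 7.75 ± 2.86 and 38.4 ± 6.92 FPKM (SD, n = 3 each), a ratio of 4.95, and Socs3 rose by a log2 fold change of 2.21 (SE 0.26, adjusted p = 0.0024 from limma), with a call in all 15 alternatives and values between 1.94 and 2.44. From vehicle to DS-5272, Socs3 passed from a level under every STAT gene to a level that overlapped those of Stat2, Stat4 and Stat5b and lay above that of Stat5a.

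Socs1, the inhibitor of JAK kinases in interferon signalling, had the lowest level of the 9 genes in both groups. It measured 1.44, 1.83 and 1.92 FPKM with vehicle and 2.71, 2.33 and 2.74 FPKM with DS-5272. The groups did not overlap. The means were 1.73 ± 0.256 and 2.60 ± 0.230 FPKM (SD, n = 3 each), and the log2 fold change was 0.40 (SE 0.13, adjusted p = 0.046 from limma; 0.57 with a pseudocount of 0.1). This call is close to the threshold: it was lost without any 1 of the 6 samples (adjusted p from 0.051 to 0.125) and in 5 further alternatives, and at a common total the log2 fold change was 0.22. The values rest on roughly 180 to 253 fragments per sample for Socs1, against 529 to 3634 for Socs3, by the depth estimate and the longest annotated transcript.

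The other inhibitors of the pathway did not move as a block. Among the 6 remaining SOCS family genes, Cish and Socs2 were under the level for the test, Socs5 rose (0.72, SE 0.21, adjusted p = 0.029 from limma), and Socs4, Socs6 and Socs7 did not pass (−0.15, 0.16 and −0.07, adjusted p = 0.34, 0.44 and 0.70 from limma). The call of Socs5 was lost without vehicle replicate 2 or 3 or DS-5272 replicate 1 or 3 (adjusted p from 0.057 to 0.0996). Of 13 PIAS, phosphatase and adaptor genes, all were tested, 5 rose and 2 fell, with a median of 0.22. The genes that rose were Usp18 (above), Ptprc, which codes for the phosphatase CD45 (1.18, SE 0.18, adjusted p = 0.0041 from limma), Ptpn6, for SHP-1 (1.11, SE 0.16, adjusted p = 0.0040 from limma), Ptpn1, for PTP1B (1.08, SE 0.11, adjusted p = 0.0017 from limma), and Sh2b3, for the JAK2-binding adaptor LNK (0.69, SE 0.10, adjusted p = 0.0038 from limma). Pias2, a SUMO ligase (−0.39, SE 0.10, adjusted p = 0.018 from limma), and Ptpn11, for SHP-2 (−0.28, SE 0.10, adjusted p = 0.048 from limma), fell. The call of Ptpn11 was lost without any 1 of the 6 samples (adjusted p from 0.051 to 0.156) and with the replicate number as a block (0.053), and that of Pias2 was lost without vehicle replicate 2 or 3 (0.084 and 0.064). Cbl, a ubiquitin ligase, passed with the block (0.34, adjusted p = 0.042 from limma) but not without it (0.057).

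Ligands of these receptors were mostly near 0 in the sorted cells. Of 23 cytokine genes, 7 were tested and 4 of them rose; all 7 had positive log2 fold changes. Il27, a cytokine of activated myeloid cells, had means of 1.05 and 8.36 FPKM (log2 fold change 2.16, SE 0.23, adjusted p = 0.0018 from limma), Il15, a growth factor of NK cells, 2.98 and 13.7 FPKM (1.85, SE 0.22, adjusted p = 0.0024 from limma), and Csf1, the macrophage growth factor, 2.38 and 8.15 FPKM (1.41, SE 0.22, adjusted p = 0.0045 from limma). Lif, of the IL-6 family, was the remaining one (1.07, SE 0.30, adjusted p = 0.027 from limma), and its call was lost without vehicle replicate 1 or 2 or DS-5272 replicate 2 or 3 (adjusted p from 0.061 to 0.074). The vehicle mean of Lif, 0.793 FPKM, is under the minimum of 1, which it reached through the DS-5272 mean of 2.81 FPKM. Osm, of the IL-6 family too, was the most abundant ligand, at 14.7, 68.8 and 61.2 FPKM with vehicle and 56.7, 158.9 and 180.2 FPKM with DS-5272. Its groups overlapped, and it rose only with the replicate number as a block (adjusted p = 0.0013 from limma, against 0.10 without it), as did Il23a (0.028, against 0.20), which is also under 1 FPKM in the vehicle mean (0.753 FPKM). Il6 did not exceed 0.744 FPKM. Over all the lists of receptors, ligands, inhibitors and targets, with the 9 genes left out, 84 genes were tested, 52 rose and 6 fell, with a median log2 fold change of 1.09. Among all tested genes 24.2% were higher and 22% lower, with a median of 0.04. The lists were chosen with earlier results of these data known. When 1 vehicle sample was left out, 2, 1 and 1 of these pathway genes were called lower without replicates 1, 2 and 3. Over all 11130 tested genes, 1664, 1389 and 1492 were called lower in the same fits.

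**Figure D3:**
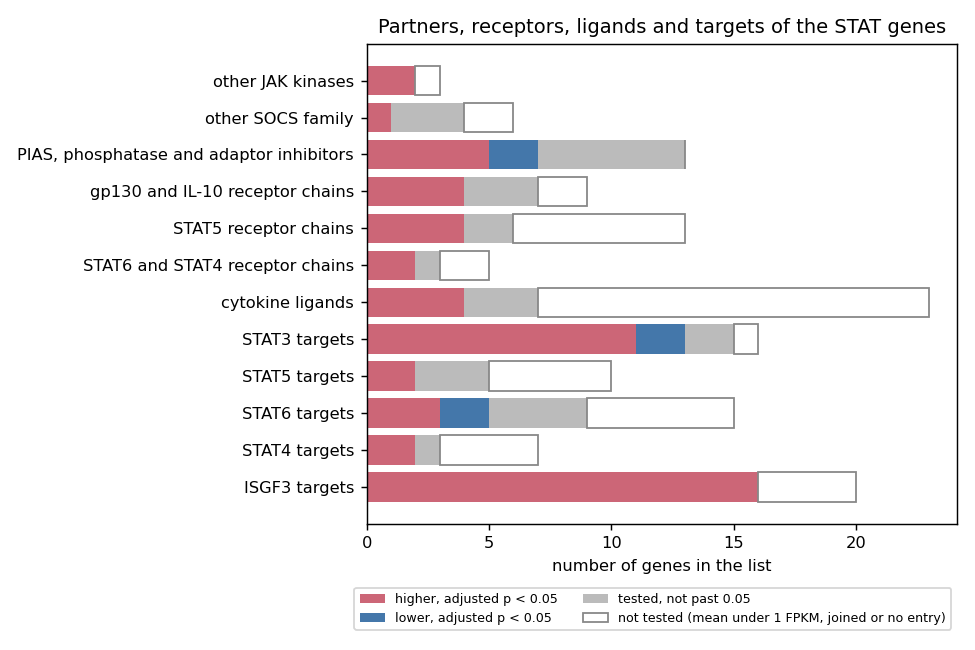
Number of genes in each of 12 lists of pathway partners, split by the outcome of the limma test at an adjusted p of 0.05. All 16 tested ISGF3 targets and 11 of 15 tested STAT3 targets were higher with DS-5272, while 16 of 23 cytokine ligand genes were not tested.

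Ratios between family members do not depend on how a library is scaled. The Stat5a to Stat5b ratio was 1.001, 0.902 and 0.876 with vehicle and 0.551, 0.573 and 0.427 with DS-5272, with means of 0.926 ± 0.0662 and 0.517 ± 0.0787 (SD, n = 3 each; log2 difference −0.85). The genes were thus at near equal levels in vehicle samples, and Stat5b was the more abundant in each DS-5272 sample. The Socs3 to Socs1 ratio went from 4.40 ± 1.24 to 14.7 ± 1.57 (SD, n = 3 each; log2 difference 1.77). The ratio of Stat3 to the sum of Stat5a and Stat5b went from 1.24 ± 0.0622 to 1.84 ± 0.387 (SD, n = 3 each; log2 difference 0.55). The groups did not overlap for any of the 3 ratios, and each gave p = 0.1 in a two-sided exact permutation test (0.1 after Benjamini-Hochberg adjustment over the 3), the smallest p that 3 samples against 3 allow.

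**Figure D4:**
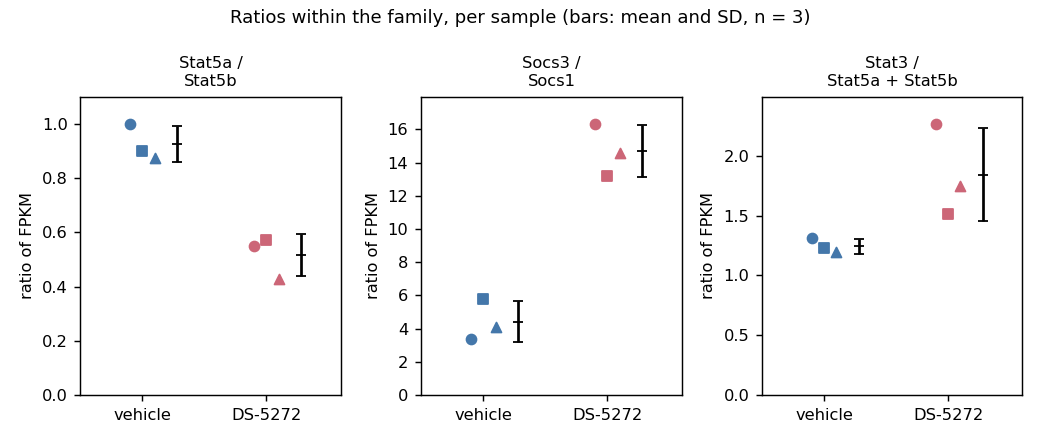
Ratios of FPKM between members of the family, with 1 point per sample and, beside the points, the mean and SD (n = 3). The Stat5a to Stat5b ratio is lower, and the Socs3 to Socs1 and Stat3 to Stat5a plus Stat5b ratios are higher, in all 3 DS-5272 samples than in any vehicle sample.

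The order of levels also differed between the groups. In vehicle samples it ran Stat4, Stat3, Stat6, Stat5b, Stat5a, Jak2, Stat2, Socs3 and Socs1, and the sample ranges of neighbours overlapped only for Stat5b with Stat5a and for Jak2 with Stat2. In DS-5272 samples it ran Stat6, Stat3, Stat4, Stat2, Socs3, Stat5b, Jak2, Stat5a and Socs1. Neighbours there were apart only for Stat3 and Stat4, Jak2 and Stat5a, and Stat5a and Socs1. On the log2(FPKM + 1) scale the range over 3 samples was wider in the DS-5272 group for 7 of the 9 genes; Socs1 and Socs3 varied more in the vehicle group.

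The DS-5272 samples did not rank alike for all genes. Of the 7 genes that rose, 5 (Stat2, Stat3, Jak2, Socs1 and Socs3) had their lowest DS-5272 value in replicate 2, and 2 (Stat5b and Stat6) had it in replicate 1. Against the vehicle mean, Stat2 was higher by 1.73, 0.92 and 1.53 on the log2 scale in DS-5272 replicates 1, 2 and 3, and Stat6 by 0.84, 1.07 and 1.44. Among all 2697 genes called higher, 49.5% were lowest in DS-5272 replicate 1, 47.0% in replicate 2 and 3.5% in replicate 3.

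**Figure D5:**
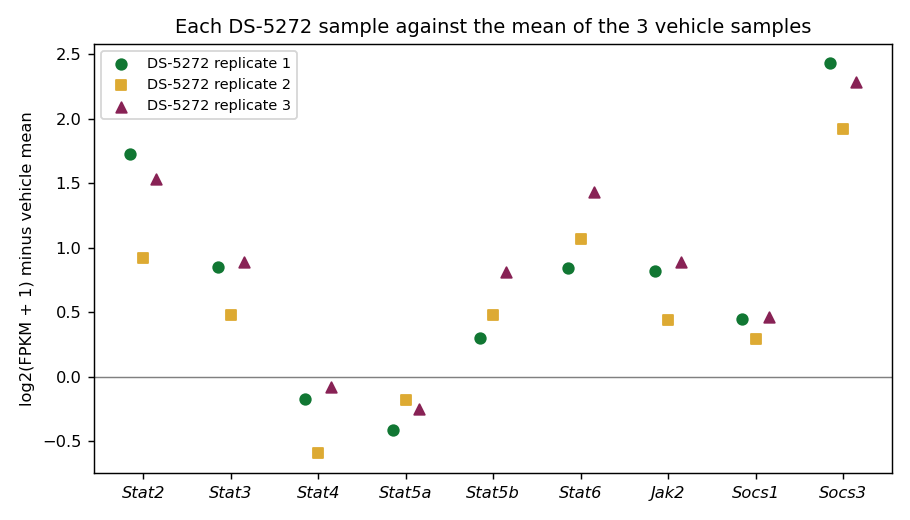
Difference of each DS-5272 sample from the mean of the 3 vehicle samples, on the log2(FPKM + 1) scale, with 1 marker per sample. Replicate 2 is lowest for Stat2, Stat3, Stat4, Jak2, Socs1 and Socs3, and replicate 1 for Stat5a, Stat5b and Stat6.

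Over the 6 samples, the genes with the most similar log2 profile, out of 8561 tested genes that averaged 5 FPKM or more, had a Pearson r of 0.998 for Stat2 (Fbxo4 and D19Wsu162e), 0.997 for Stat3 (LOC100861652), 0.999 and 0.998 for Stat5b (Nit1 and Prdm2), 0.997 for Jak2 (Snx13 and Tbc1d20), 0.999 and 0.998 for Socs1 (Scamp1 and Nceh1) and 0.999 for Socs3 (LOC100861684 and Abhd12). Stat6 was matched most closely by Ppp1r18 and Hcls1, an adaptor of hematopoietic cells. Stat5a was most like Ulbp1 and Mcph1 (0.995 and 0.994), and Stat4 had the loosest best match, Sipa1l1 and Zfp740 (0.953 for the former). The 6 points form 2 groups and share their libraries, so these values are descriptions only.

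Markers listed for other cells moved with the treatment as well. The 9 bone marrow macrophage markers all had positive log2 fold changes, 5 of them past the test. They summed to between 63.2 and 116.9 FPKM in vehicle and between 204.0 and 459.9 FPKM in DS-5272 samples. The largest part in vehicle was Vcam1, at 36.6, 64.1 and 82.8 FPKM, against 142.9, 74.8 and 85.7 FPKM with DS-5272. The study reports VCAM-1 protein raised by DS-5272 in c-Kit+ leukemia cells, so the sum does not count macrophages alone. Vcam1 and Cd5l did not pass (0.74 and 2.32, adjusted p = 0.13 and 0.12 from limma). Mertk and Axl, which did not pass either, had vehicle means of 0.559 and 0.463 FPKM. They reached the minimum of 1 through the DS-5272 means of 3.36 and 4.77 FPKM, so their positive sign is partly selected by the change itself. C1qa was at 38.4, 6.92 and 6.64 FPKM with DS-5272, against at most 2.15 FPKM in vehicle. The 5 erythroid markers with an entry summed to between 2.06 and 4.45 FPKM in vehicle and between 12.4 and 146.1 FPKM in DS-5272 samples, also highest in replicate 1. Among 8 myeloid leukemia markers 3 rose and 3 fell, with Elane, a protease of immature granulocytes, falling by 2.54 and Csf1r, the macrophage growth factor receptor, rising by 1.91 on the log2 scale. The 8 B cell markers summed to at most 5.79 FPKM in any sample and the 8 stroma and endothelium markers to between 29.1 and 60.0 FPKM in vehicle and 73.4 and 112.3 FPKM in DS-5272 samples, nearly all of it Pecam1. Adgre1 and Siglec1, the other markers that rose beside the C1q genes, had their lowest DS-5272 values at 59.8 and 16.5 FPKM, against at most 23.3 and 2.43 FPKM with vehicle, so that each DS-5272 sample carried more of these messengers. The part of such cells in the values of the 9 genes was not tested.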

How the data were processed

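RNA-Seq was performed by the authors on 6 samples with strand-specific, paired-end libraries. Per the labels and the methods, reads were trimmed with cutadapt 1.8.1, aligned to GRCm38 transcripts with TopHat2 2.1.1 and quantified with Cufflinks 2.2.1, and the deposited values are FPKM per gene, not counts, so no count model was used. The table has 26632 lines; 435 names on more than 1 line were summed, and genes given only in the 433 joined lines were left out of the lists. Groups were compared by limma 3.58.1 (R 4.3.3; lmFit and eBayes with trend, two-sided) on log2(FPKM + 1), with a mean of at least 1 FPKM, Benjamini-Hochberg adjustment and a threshold of 0.05. The fit was tested on simulated data. Ratios were compared by an exact permutation test. Python 3.11.15 with pandas 2.3.3, scipy 1.17.1 and matplotlib 3.10.9 was used for the rest.

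The 9 genes, the pathway lists and the marker lists were chosen with earlier results of these data known. In each list the 3 largest changes past the threshold, and the 1 largest the other way, were named; Ptpn1, Ptpn11, Sh2b3, Il27ra, Il3ra, Lif, Myc, Ccl17, genes whose call the block changed and genes named as under the level for the test or as not passing were added after their values were seen. The 2 most alike genes per member were named by Pearson r, except 1 that is not reported here. Depth was estimated from FPKM steps of low genes and gives no counting interval. Same-numbered samples deviated together (r = 0.658, 0.209 and 0.43, all over the limit of 0.1). However, vehicle replicate 2 gave a higher r with DS-5272 replicate 3 (0.335) than with replicate 2, and vehicle replicate 3 gave 0.185 with DS-5272 replicate 2. These values set replicate 1 apart but do not pair replicates 2 and 3 by number, so calls made only with the block rest on an unproven pairing. Reported values come from the fit without the block, and the blocked value is given where it changes a call. No source names a shared batch. Alternative analyses used 4 rescalings, a pseudocount of 0.1, all genes unfiltered, a 5 FPKM minimum, the replicate block, eBayes without trend, and leaving out each sample.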

Additional observations from a re-analysis of the deposited data

How the results depend on the processing

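No gene of the 9 changed direction in any alternative, and Stat2, Stat6 and Socs3 kept their call in all of them. Another filter, the replicate block and eBayes without trend leave the log2 fold change as it is by construction. Only the other alternatives could change a direction. At a common total (TPM), 3 of the 9 genes were called higher and 2 lower, with log2 fold changes of 0.48 for Stat3, 0.27 for Stat5b, 0.46 for Jak2 and 0.22 for Socs1 (no call) and −0.54 for Stat4 and −0.53 for Stat5a (called). Of all 11130 tested genes, 1713 were called higher and 3555 lower at that scaling. Quantile normalization gave 2 genes lower (Stat4 −0.46, Stat5a −0.35) and Socs1 0.37 without a call. Over all tested genes it called 2418 higher and 3135 lower. The common upper quartile gave 1 lower (Stat5a −0.41) and Socs1 0.31, median-ratio size factors 1 lower (Stat5a −0.32) and Socs1 0.37, and a mean of at least 5 FPKM 1 lower (Stat5a −0.28) with Socs1 not tested. In these settings 3179 of 11130, 2640 of 11130 and 1997 of 8569 tested genes were called lower. Without a filter Socs1 kept 0.40 and lost its call. The rescalings lower the DS-5272 group against vehicle. Its FPKM sums are larger on average, although DS-5272 replicate 1 (499229) lies under vehicle replicate 3 (501241). Which scale is closer to the cells was not tested.

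Leaving out 1 sample at a time gave log2 fold changes of −0.33 to −0.22 for Stat5a, 0.39 to 0.65 for Stat5b and 0.32 to 0.45 for Socs1, 0 to 1 of the 9 genes called lower (1 without DS-5272 replicate 2), 5 to 6 called higher, and 1 to 7 pathway genes called lower. Over all 11130 tested genes these fits called 1623 to 2934 higher and 1389 to 2432 lower. Of 40 named pathway genes, 10 lost their call without some sample and 3 (Socs5, Bcl2l1 and Il27ra) at a common total. With the replicate block, 7 of the 9 genes were called higher and 0 lower, as without it, with no change of call among the 9, and 59 pathway genes were higher and 6 lower. Over all tested genes the blocked fit called 3367 higher and 2771 lower. The ratios moved by less than the spread between samples with a pseudocount of 1 and without each sample. Averaging within same-numbered pairs gives the same difference as the group means by construction, so it is no check. Other scalings were not run for the ratios. Socs1 rests on far fewer fragments than Socs3, the only other gene for which they were estimated.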
